A study of Mus musculus with 20 samples.

Results

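Loss of Dio2 was examined in the knee articular cartilage of mice that did not run: 3 Dio2-/- samples were compared with 3 wild-type samples, 6 of the 20 arrays of the study. The comparison covered the 23148 of 45281 probes whose signal was detected (P-value under 0.05 against background) on 3 or more of the 20 arrays. All mice were males of 4 to 6 months on the C57Bl/6 strain, and each sample was RNA pooled from the left knees of 2 mice, so that each group holds 6 mice. The Dio2-/- mice lack the gene in every tissue and were in generation 6 of the backcross to C57Bl/6. The other 14 arrays, 8 wild-type Run and 6 Dio2-/- Run samples, came from mice that ran on a treadmill, and they enter here to estimate the spread and for the same genotype difference in runners. Samples are named by the number in their label: wild-type NoRun replicates 12, 14 and 15, and Dio2-/- NoRun replicates 16, 17 and 19.

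Dio2 encodes the type II iodothyronine deiodinase, an enzyme of the endoplasmic reticulum that converts the prohormone thyroxine into the active hormone triiodothyronine inside the cell. In the growth plate thyroid hormone drives chondrocytes from proliferation to hypertrophy and mineralization, and articular chondrocytes normally stay short of that step. The hormone acts through nuclear receptors that bind response elements of target genes.

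The 2 groups were hybridized on separate chips. All 3 wild-type NoRun arrays shared 1 chip with Dio2-/- Run replicate 35, and all 3 Dio2-/- NoRun arrays were alone on another, so that chip and genotype cannot be told apart at rest. The sources give the wild-type mice as bought from a breeder and also give all animals as littermates, and supplier and genotype therefore cannot be told apart either. Nothing in the labels says that pools of a group came from separate litters or days, so P-values measure the spread between pools only.

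Dio2-/- NoRun replicate 16 stood apart from the other 5 resting arrays. Its mean intensity was 633.2, against 1001 to 1212 on the others, and 18469 probes were detected on it, against 20344 to 20854. Over the tested probes it correlated with the other resting arrays at r = 0.935 to 0.952, and those correlated among themselves at 0.982 to 0.993. The main counts, the called probes and most of the gene lists are given with and without it. Background also differed between the chips: the median intensity of all probes was 207.5 to 223 on the wild-type NoRun arrays and 203 on replicate 35 of the same chip, against 176.4 to 188.5 on the Dio2-/- NoRun arrays. Its part in the differences below was not tested. The cartilage label was borne out by Col2a1, the collagen of cartilage, which read 13.81 to 15.14 on the normalized log2 scale across the 6 arrays, but marrow, blood and muscle genes were also high, with mean levels of 11.71 to 14.08 for 19 neutrophil genes and 12.55 to 13.43 for 29 skeletal muscle genes. In such pools fewer cells of a type and less RNA per cell cannot be told apart.

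The transcript of the knocked-out gene was read first. The Dio2 probe (ILMN_2766037, gene on chromosome 12) read 5.5, 5.44 and 4.99 in wild-type NoRun replicates 12, 14 and 15 and 6.67, 5.77 and 6.19 in Dio2-/- NoRun replicates 16, 17 and 19 as normalized log2 intensity. All 3 knockout values were above the wild-type ones, and all were near background: it reached detection on none of the wild-type arrays (0 of 3) and on all 3 Dio2-/- arrays. Before normalization the intensities overlapped, at 181.9 to 229 in wild-type and 209.3 to 233.7 in Dio2-/- samples. The log2 difference of 0.90 (SE 0.28, adjusted P = 0.314 from limma) did not pass the threshold of 0.05, and the limit of at least 1.53-fold, from the lowest detected signal, holds for background-corrected values only. Without background correction the difference was 0.32, and on the log2 table of the authors it was 0.17. The second Dio2 probe was detected on 0 of 20 arrays. Because the sources used here do not give the place of the probes relative to the deletion, this signal does not check the genotype labels.

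At rest, 10 of 23148 probes passed an adjusted P-value below 0.05 (limma, Benjamini-Hochberg), and all 10 were lower in Dio2-/- cartilage, by 2.00- to 3.01-fold for the 8 probes detected in both groups. These are 0.0432% of the tested probes, and 0% were called higher. The 8 probes with a gene symbol belong to Cd180, Nkx6-2, Anxa11, Ppt2, Nlrp3, Rbm47, Lbh and Gmcl1. The rule for naming these genes required groups without overlap at rest, so the lack of overlap on these 8 probes is no result. At an unadjusted P-value below 0.05 there were 2405 probes, 1330 lower and 1075 higher, and the smallest adjusted P-value of a higher probe was 0.0682. The calls were fragile: limma called 0 probes without wild-type replicate 12, without Dio2-/- replicate 17 or without Dio2-/- replicate 19, 1 without replicate 14, 2 without replicate 15, and 25 without replicate 16. It also called 0 with only the 6 resting arrays in the fit (1290 probes at an unadjusted P-value below 0.05) and 0 with the chip as a random block (1490 probes).

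Anxa11, a calcium-dependent phospholipid-binding annexin, and Ppt2, a lysosomal thioesterase, had the smallest adjusted P-values among the named genes. Anxa11 read 9.65, 9.29 and 9.32 in wild-type and 8.37, 7.82 and 7.95 in Dio2-/- pools, without overlap. It fell by 1.38 on the log2 scale (SE 0.21, adjusted P = 0.0188). A brighter Anxa11 probe ran the same way with a smaller difference of -0.47, from 13.25, 13.32 and 13.21 to 12.54, 12.88 and 12.95. Ppt2 read 7.51, 7.34 and 6.99 in wild-type against 6.24, 5.86 and 5.77 in Dio2-/- pools, without overlap. It fell by 1.32 (SE 0.20, adjusted P = 0.0188), whereas the groups overlapped on its second probe, with a difference of -0.24. Both calls held without replicate 16, at adjusted P-values of 0.00337 and 0.00323.

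The immune receptors among the called genes were Cd180 and Nlrp3. Cd180, a Toll-like receptor homologue of B cells and macrophages, read 8.53, 8.58 and 8.37 in wild-type and 6.79, 6.84 and 7.06 in Dio2-/- pools. The groups were far apart and tight, and Cd180 fell by 1.59 (SE 0.28, adjusted P = 0.0381). The other probes of Cd180 differed by -1.33 and -0.58, the latter with overlapping groups. Nlrp3, the sensor of an inflammasome, read 6.74, 5.97 and 6.45 in wild-type pools. It was not above background on any Dio2-/- array, where it read 5.13, 5.54 and 5.29, so that it was at least 1.66-fold lower there after background correction (adjusted P = 0.0381). Without background correction the difference was -0.37 (adjusted P = 0.0854) and on the log2 table of the authors -0.20 (adjusted P = 0.0769), and neither passed. A second Nlrp3 probe differed by -0.77 and did not pass (adjusted P = 0.124). Mean levels of B cell and monocyte genes were lowest in replicate 16 of the 6 arrays, as given below. The called Cd180 and Nlrp3 probes were named by a rule that required groups without overlap. That replicates 17 and 19 were below every wild-type array on them is therefore no result. On the Cd180 probe that differed by -1.33, replicate 16 read 7.25, against 8.56 and 8.30 on replicates 17 and 19. The part of cell makeup in Cd180 and Nlrp3 was not tested. Without replicate 16 neither call held, at adjusted P-values of 0.0751 and 0.0939.

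Nkx6-2, Lbh, Rbm47 and Gmcl1 act in gene regulation or the nucleus. Nkx6-2, a homeobox repressor known from the nervous system, read 8.07, 7.87 and 7.64 in wild-type against 6.43, 6.02 and 6.35 in Dio2-/- pools. It fell by 1.59 (SE 0.28, adjusted P = 0.0381), and its second probe was detected on 0 of 20 arrays. Lbh, a transcriptional cofactor of limb and heart development, read 11.73, 11.71 and 11.62 against 10.75, 10.51 and 10.74. This was the tightest wild-type group of the named calls, and Lbh fell by 1.02 (SE 0.17, adjusted P = 0.0381). Its brighter probe overlapped between the groups, at 12.45, 12.55 and 12.42 against 11.66, 12.46 and 12.39. Rbm47, an RNA-binding protein of mRNA editing, read 11.20, 10.74 and 11.28 against 9.96, 10.23 and 9.85. Gmcl1, a nuclear envelope protein named for the fly gene germ cell-less, read 10.40, 10.13 and 10.14 against 9.09, 9.43 and 9.15. Neither of these groups overlapped, with falls of 1.06 (SE 0.19) and 1.00 (SE 0.17) and adjusted P-values of 0.0381 for both. The other tested Rbm47 probe was near background and overlapped, with a difference of -0.14. A second Gmcl1 probe differed by -1.24 and the third by -0.20 with overlap. Without replicate 16 Nkx6-2 and Lbh kept their calls (adjusted P = 0.0357 and 0.0329), and Rbm47 and Gmcl1 lost them (0.0767 for both).

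The 2 called probes without a gene symbol in the annotation were ILMN_2798167 and ILMN_3163335. ILMN_2798167 read 6.89, 6.79 and 6.23 in wild-type pools and was not above background on any Dio2-/- array, at 4.71, 5.02 and 4.84, which makes it at least 1.98-fold lower after background correction (adjusted P = 0.0156). Its difference was -0.72 without background correction and -0.39 on the log2 table of the authors, and both passed (adjusted P = 0.00627 and 0.00724). ILMN_3163335 read 7.88, 7.49 and 7.43 against 6.01, 6.31 and 6.04, a fall of 1.48 (SE 0.26, adjusted P = 0.0381). Both sets of values were without overlap. Without replicate 16 ILMN_2798167 kept its call (adjusted P = 0.012) and ILMN_3163335 lost it (0.0775).

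**Figure D1:**
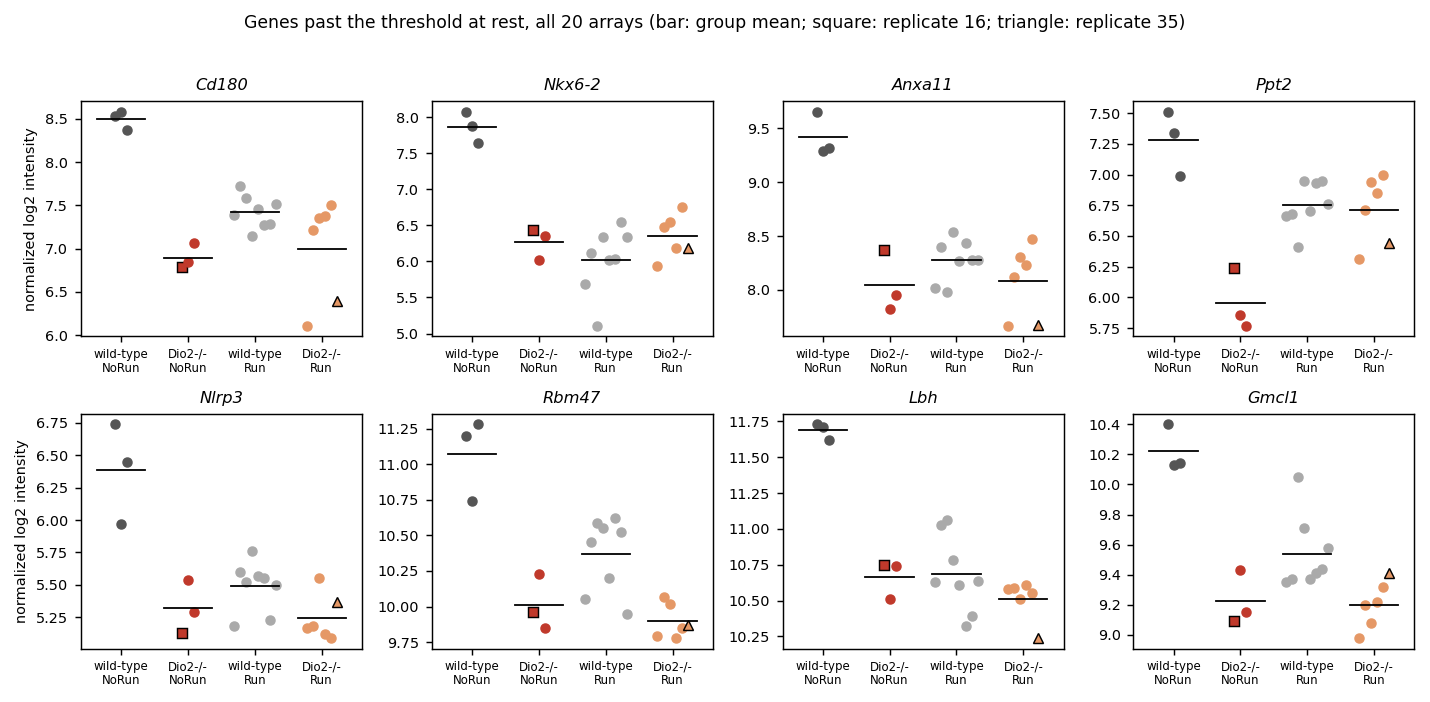
Normalized log2 intensity (vertical axis) of the 8 named genes called at rest on all 20 arrays, by group, with each array as a point and the group mean as a bar; the square is Dio2-/- NoRun replicate 16 and the triangle Dio2-/- Run replicate 35, which shared the chip of the wild-type NoRun arrays. In every panel the 3 wild-type NoRun points lie above the 3 Dio2-/- NoRun points, which the rule for naming these genes required. Replicate 35 lies below all 3 wild-type NoRun points, which the choice of these probes favours.

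Set beside the runners, most of the called probes had their highest values in wild-type mice at rest. On 7 of the 10 probes the 3 wild-type NoRun arrays were above all 17 other arrays, wild-type Run arrays included. The probes were called for wild-type NoRun values above the Dio2-/- NoRun values, and that choice favours such a pattern. The share over all tested probes was not taken, so the count is a description. For Anxa11 the 8 wild-type Run arrays ranged from 7.98 to 8.54 around a median of 8.28, and the 6 Dio2-/- Run arrays from 7.67 to 8.47 around 8.18, so both lay near the Dio2-/- NoRun values and below the wild-type NoRun values. For Nkx6-2 the wild-type Run arrays ranged from 5.11 to 6.54 and the Dio2-/- Run arrays from 5.94 to 6.75. The exceptions were Ppt2 and the 2 probes without a symbol, where some Run arrays reached the range of wild-type NoRun. Dio2-/- Run replicate 35 was below all wild-type NoRun arrays of its own chip on 10 of the 10 probes, for example at 7.68 for Anxa11, 10.24 for Lbh and 6.40 for Cd180. It differs from those arrays in genotype and in running. The same choice of probes favours this count, and the part of the chip was not tested.

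In runners, 0 of the tested probes passed (0%, limma; 1891 at an unadjusted P-value below 0.05). Of the 10 probes called at rest, 9 were lower in Dio2-/- runners, with fitted differences of -0.93 to 0.32 on the log2 scale, and for 5 the 95% interval in runners lay below 0. Rbm47 differed by -0.47 (interval -0.73 to -0.21) and ILMN_2798167 by -0.93 (-1.28 to -0.59) in runners, whereas Ppt2 differed by -0.05 (-0.32 to 0.23). The test of the difference between the genotype effects with and without running called 0 probes (0%, limma; 1187 at an unadjusted P-value below 0.05). Its smallest P-values among genes with a symbol were those of Nkx6-2, Ppt2 and Pbrm1, a subunit of a chromatin remodelling complex. The effect on Nkx6-2 was 1.91 higher in runners than at rest (interval 1.22 to 2.61, adjusted P = 0.315), that on Ppt2 1.27 higher (0.78 to 1.77, adjusted P = 0.336), and that on Pbrm1 went from 0.87 at rest to -0.48 in runners (adjusted P = 0.542). The Pbrm1 probe was dim, and the other Pbrm1 probes differed by -0.82 to 0.37 at rest. Nkx6-2 and Ppt2 were chosen at rest for large differences, and these intervals are a description.

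**Figure D2:**
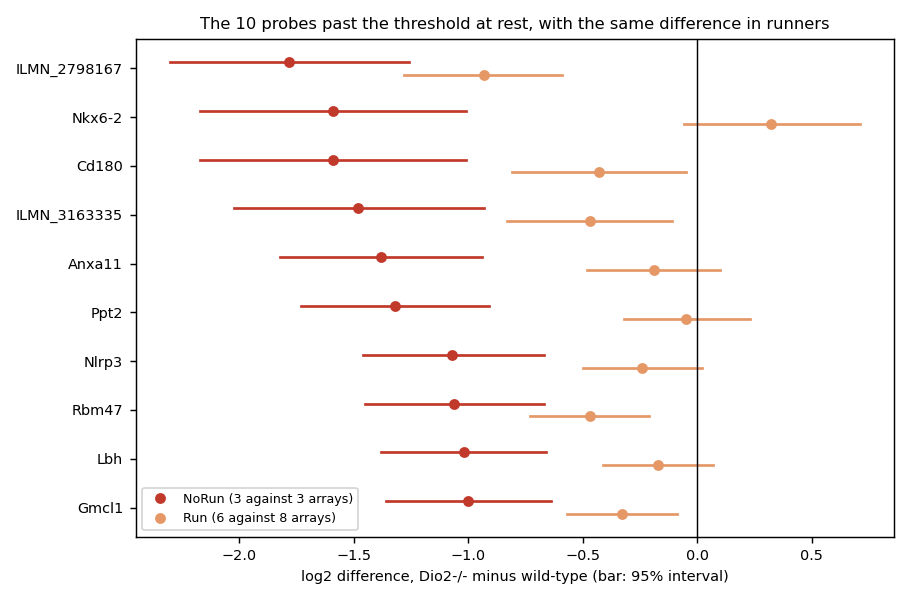
Log2 difference between Dio2-/- and wild-type cartilage (horizontal axis) for the 10 probes called at rest, with 95% intervals, in NoRun mice and in Run mice. For the 8 probes detected in both NoRun groups the differences run from -1.59 to -1.0 at rest. The fitted values of Nlrp3 and ILMN_2798167 at rest are drawn although the Dio2-/- NoRun arrays were at background, and in runners the fitted differences run from -0.93 to 0.32.

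Calr encodes calreticulin, a calcium-binding chaperone of the endoplasmic reticulum and the gene the study followed up. Its second probe was detected on 0 of 20 arrays and was not tested. The tested probe (ILMN_2861176) read 11.85, 11.34 and 11.21 in wild-type and 10.36, 9.81 and 9.95 in Dio2-/- pools at rest, without overlap. Unprocessed intensities were 2459.8 to 4152.8 against 777.3 to 1243.7. The log2 difference was -1.43 (SE 0.28, 95% interval -2.02 to -0.83) with an adjusted P-value of 0.0735 from limma, which did not pass. A two-sided exact permutation test of the 6 arrays gave P = 0.1, the smallest value that 20 arrangements allow. On the log2 table normalized by the authors the difference was -1.19 and passed (adjusted P = 0.0376), and without replicate 16 it was -1.59 (adjusted P = 0.0607). The 8 wild-type Run arrays lay between 9.99 and 10.95, all below the wild-type NoRun arrays, and the Dio2-/- Run arrays between 9.24 and 10.62. In runners the genotype difference of Calr was -0.80 (95% interval -1.19 to -0.40, adjusted P = 0.342 from limma), which did not pass. Of 24 genes for chaperones and the unfolded protein response, 20 were tested and 0 passed, with 12 lower, 8 higher and a median difference of -0.10, or 0.11 without replicate 16. Ddit3 and Atf4, transcription factors of endoplasmic reticulum stress, did not overlap and had differences of 0.37 and 0.55 (adjusted P = 0.417 and 0.534).

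Promoters were searched for stress, clock and thyroid hormone motifs. The searched genes were those the study names, the called genes and the 10 genes with the smallest P-values in the higher direction. The 13 genes of the clock lists were searched as well. A promoter was matched for 4 of the 5 genes the study names, for 9 of those 10 genes and for 12 clock genes. Leaving the clock lists aside, Calr, Per3 and Coq10b alone held a motif among the matched genes, and their promoters are shown. The promoters come from RefSeq (GRCm38.p6) and run from 250 bases before to 50 after the gene start, 5′ to 3′ on the strand of the gene. Capitals mark the motifs, searched on both strands: the E-box CACGTG, the D-box TTATGTAA, the endoplasmic reticulum stress element CCAAT, 9 bases, CCACG, and the thyroid hormone element DR4 of AGGTCA, 4 bases, AGGTCA.
Calr, chr8:84846882-84847181, minus strand: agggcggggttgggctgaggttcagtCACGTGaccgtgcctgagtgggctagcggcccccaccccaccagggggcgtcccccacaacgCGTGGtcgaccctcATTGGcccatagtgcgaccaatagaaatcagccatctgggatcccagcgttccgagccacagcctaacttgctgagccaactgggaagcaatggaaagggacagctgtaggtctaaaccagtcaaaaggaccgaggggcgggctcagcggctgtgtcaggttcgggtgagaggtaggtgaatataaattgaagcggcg
Per3, chr4:151044616-151044915, minus strand: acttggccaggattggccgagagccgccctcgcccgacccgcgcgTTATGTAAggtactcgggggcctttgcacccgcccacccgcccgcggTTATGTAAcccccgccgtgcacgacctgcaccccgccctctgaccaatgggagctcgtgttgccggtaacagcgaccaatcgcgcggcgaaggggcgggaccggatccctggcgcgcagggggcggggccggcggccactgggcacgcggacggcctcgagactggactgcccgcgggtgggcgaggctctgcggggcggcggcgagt
Coq10b, chr1:55052520-55052819, plus strand: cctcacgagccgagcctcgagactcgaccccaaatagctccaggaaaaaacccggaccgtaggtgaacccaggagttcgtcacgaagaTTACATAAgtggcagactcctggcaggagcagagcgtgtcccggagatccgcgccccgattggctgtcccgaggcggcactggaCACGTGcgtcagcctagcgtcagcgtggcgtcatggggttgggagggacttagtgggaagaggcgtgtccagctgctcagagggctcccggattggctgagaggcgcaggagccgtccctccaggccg
Calr holds an E-box and, on the opposite strand, an endoplasmic reticulum stress element, which 0.119% of 32851 RefSeq promoters of this length hold. Per3 holds 2 D-boxes and Coq10b holds 1 D-box and 1 E-box. In the lists of clock genes the promoters of Ciart, Per1 and Tef also hold an E-box (3 of 12 matched, 25%) and are not shown. Of all promoters 0.938% hold a D-box, 7.15% an E-box and 0.0152% a DR4. All 8 named genes called at rest were matched to a promoter, and 0 held any of the 4 motifs. A match is a stretch of letters and was not tested as a binding site.

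No gene was called higher in Dio2-/- cartilage, and the 10 genes with the smallest unadjusted P-values in that direction are given as values that did not pass. Phldb1, a protein that anchors microtubules at the cell cortex, read 7.43, 7.67 and 7.61 in wild-type against 8.62, 8.65 and 8.46 in Dio2-/- pools, a difference of 1.00 (SE 0.19, adjusted P = 0.0682 from limma). Its brighter probe overlapped, with a difference of 0.46. Coq10b, a coenzyme Q binding protein of mitochondria, read 6.62, 6.78 and 6.95 against 8.48, 7.77 and 7.72, a difference of 1.20 (SE 0.24, adjusted P = 0.0735), while its other 3 tested probes differed by 0.09 to 0.32. Slc5a3, the inositol transporter of the response to osmotic stress, was not detected on any wild-type array and read 6.70, 6.19 and 6.16 in Dio2-/- pools, at least 1.69-fold higher after background correction (adjusted P = 0.0735). Its intensities before normalization overlapped, at 182 to 221.7 in wild-type and 210.6 to 233.9 in Dio2-/- pools, and the difference was 0.41 without background correction and 0.22 on the log2 table of the authors. On the normalized scale the groups did not overlap on these probes of Phldb1, Coq10b and Slc5a3. A probe of the period gene Per3 (ILMN_1251591) was detected on 0 of 3 wild-type arrays, at 5.23, 5.41 and 5.29, and read 7.35, 6.22 and 6.10 in Dio2-/- pools, at least 1.96-fold higher after background correction (adjusted P = 0.135; 0.45 on the log2 scale without background correction), with replicate 16 far above the others. Its brighter probe overlapped, with a difference of 0.33. Scnm1 and Kmt5a, a splicing factor and a histone methyltransferase, differed by 0.85 and 0.84. A second Scnm1 probe had a difference of 0.90 without overlap, and the brightest probe of each gene showed -0.04 and -0.08. A further Kmt5a probe was lower in Dio2-/- pools without overlap, at -0.40, and another overlapped at 0.05. Zscan21, Ncaph2, Asb6 and Ap2a2 differed by 0.48 to 0.93 (adjusted P = 0.102 to 0.141). A second Zscan21 probe differed by 0.34 without overlap. The brighter Ncaph2 probes differed by 0.25 and 0.24 and a second Asb6 probe by -0.06, all with overlap.

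Among the other genes the study names for these arrays, Socs2, an inhibitor of growth hormone signalling, read 11.86, 11.97 and 11.64 in wild-type against 11.33, 11.07 and 11.30 in Dio2-/- pools. Sox4, a transcription factor of skeletal progenitors, read 11.91, 11.70 and 11.66 against 11.22, 10.87 and 10.93. Neither overlapped, and neither passed, with differences of -0.59 (SE 0.19, adjusted P = 0.317) and -0.75 (SE 0.25, adjusted P = 0.341). The second Sox4 probe was dim and differed by -0.08. Hmgb2, a chromatin protein of the superficial cartilage zone, overlapped between the groups, at 12.12, 12.26 and 11.67 against 12.38, 12.17 and 12.54, with a difference of 0.34 (SE 0.22, adjusted P = 0.577).

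**Figure D3:**
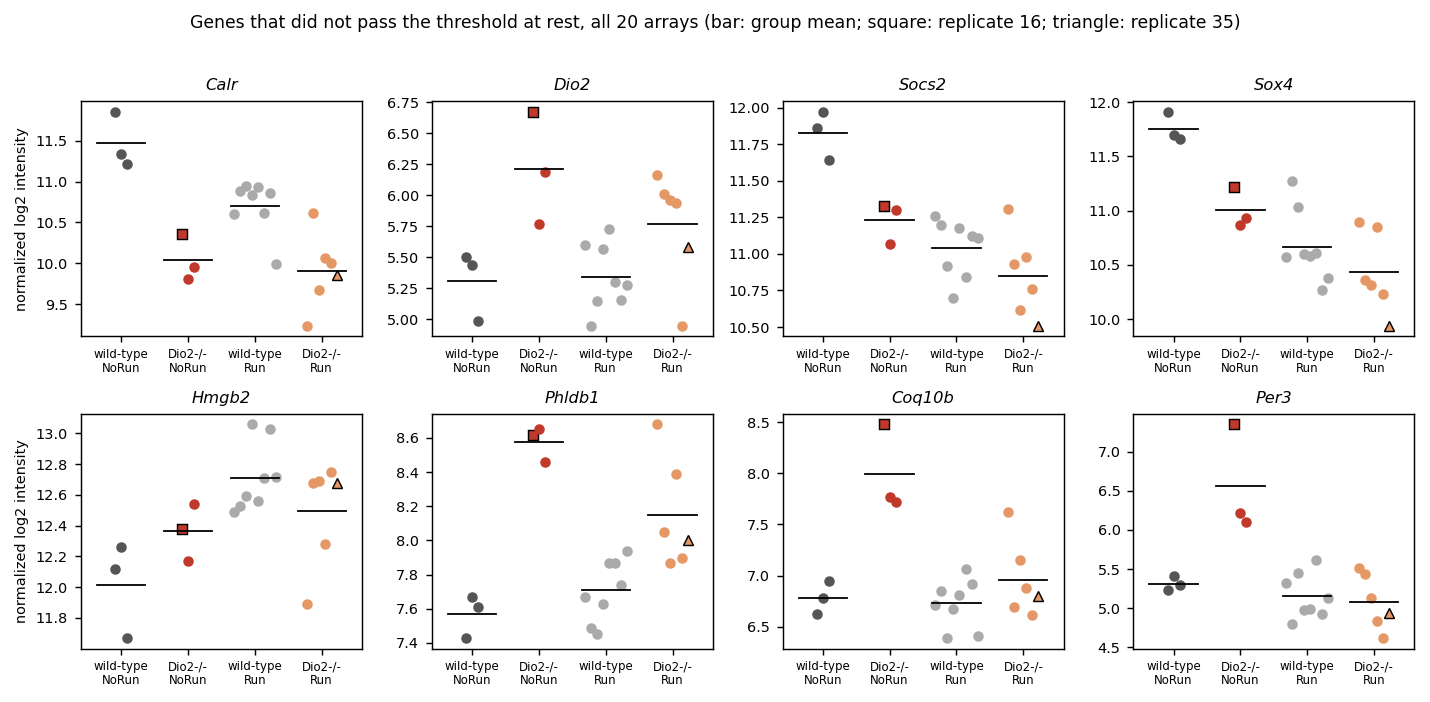
Normalized log2 intensity (vertical axis) on all 20 arrays, by group, for 8 genes that did not pass the threshold at rest; points are arrays, bars are group means, the square is Dio2-/- NoRun replicate 16 and the triangle Dio2-/- Run replicate 35. Calr runs from 11.21 to 11.85 in wild-type NoRun and from 9.81 to 10.36 in Dio2-/- NoRun arrays, and Coq10b and Per3 are higher in Dio2-/- NoRun than in wild-type NoRun arrays.

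The 38 gene lists are described by their counts and medians, with 1 probe per gene. Over all 12310 genes the median difference at rest was 0.01, 5.74% were lower and 5.07% higher at an unadjusted P-value below 0.05, and the groups were without overlap in 6.59% (lower) and 6.82% (higher). In these lists 0 members passed the adjusted threshold in either direction.

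Cartilage genes lay on both sides of 0. Of 31 genes of cartilage matrix and chondrocyte factors 26 were tested, with 14 higher, 11 lower and a median difference of 0.11, or -0.08 without replicate 16. Col2a1 read 15.14, 15.12 and 14.74 in wild-type against 14.75, 13.81 and 14.50 in Dio2-/- pools, overlapping by a narrow margin, with a difference of -0.64 (SE 0.45, adjusted P = 0.616). Col9a1, a collagen of the same fibrils, was without overlap at -0.82 (adjusted P = 0.491). Genes of hypertrophic chondrocytes, the step that thyroid hormone promotes in the growth plate, had a median of -0.28 over 11 tested genes, with 9 lower (-0.23 without replicate 16). Among them Ppa1, a pyrophosphatase, read 13.92, 13.72 and 14.34 against 13.60, 13.26 and 13.30, a difference of -0.61 (SE 0.20, adjusted P = 0.361), and Col10a1, the collagen of hypertrophic cartilage, differed by -0.82 with overlap (adjusted P = 0.621), or -1.29 without replicate 16. Of 13 tested osteoblast and osteocyte genes 12 were lower, with a median of -0.50. Without replicate 16 the median was -0.33 with 9 lower. Ibsp, a protein of mineralizing matrix held by both lists, read 14.18, 13.88 and 13.88 against 13.51, 13.11 and 13.53 (difference -0.59, adjusted P = 0.501). Matrix-degrading enzymes, their inhibitors and the cytokines Il1b and Il6 had a median of -0.06 over 16 genes (0.10 without replicate 16). Il1b differed most, by -1.52 with overlap (adjusted P = 0.438), or -0.31 without replicate 16. Timp3, an inhibitor of aggrecanases, did not overlap and had a difference of 0.57 (adjusted P = 0.428).

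Genes that handle or answer thyroid hormone had a median of 0.06 over 12 of 20 listed genes, 7 higher and 5 lower (0.15 without replicate 16). Crym, a cytosolic binder of triiodothyronine, read 6.42, 6.98 and 6.42 in wild-type and 5.19, 5.77 and 5.82 in Dio2-/- pools. The groups did not overlap, and the difference was -1.02 (SE 0.41, adjusted P = 0.417). The receptor gene Thra differed by -0.11, the inactivating deiodinase Dio3 by 0.05, and the response genes Hr and Klf9 by 0.53 and 0.35, all with overlapping groups. Without replicate 16 the differences of Thra, Hr and Klf9 were -0.31, 0.22 and 0.20.

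Clock genes of the Dbp phase stood highest together with adipocyte genes. All 10 tested members were higher in Dio2-/- pools, with a median of 0.56 (0.48 without replicate 16, with 9 higher). Tef, a transcription factor that binds D-boxes, read 9.75, 9.56 and 9.16 in wild-type against 11.27, 10.24 and 10.71, a difference of 1.25 (SE 0.41, adjusted P = 0.332). Ciart, a clock repressor, read 6.98, 7.20 and 6.33 against 8.22, 7.83 and 7.64 (1.06, SE 0.40, adjusted P = 0.395), and Dbp read 11.76, 12.33 and 9.81 against 13.24, 12.53 and 12.72 (1.53, SE 0.67, adjusted P = 0.450). In these 3 genes the groups did not overlap, and wild-type replicate 15 was the lowest array. Over all genes 6.82% were higher without overlap. The median of the same genes in runners was 0.44. Genes of the opposite phase were few: Npas2, Arntl and Clock differed by -0.30, -0.62 and -0.01, and Arntl by -0.31 without replicate 16. The sources used here do not give the time of day at which each pool was collected.

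Genes induced by glucocorticoids had a median of 0.42 over 12 tested genes, 10 of them higher, and 0.55 without replicate 16. In runners the median was -0.10. The values varied widely among the knockout pools: Fkbp5, a co-chaperone of the receptor, read 8.15, 10.79 and 9.10 in replicates 16, 17 and 19 against 9.19, 9.07 and 8.91 in wild-type, and Tsc22d3 read 11.98, 13.46 and 12.94 against 12.40, 12.45 and 11.90. Immediate early genes had a median of 0.15 over 18 genes, with 11 higher (0.28 and 15 without replicate 16). Jun, a subunit of the AP-1 factor, read 8.28, 7.88 and 8.62 against 9.23, 8.95 and 9.43, without overlap (0.94, SE 0.30, adjusted P = 0.317), whereas Egr1 overlapped. Heat shock genes had a median of 0.26 over 13 genes (0.16 without replicate 16), with Bag3 without overlap at 0.40 (adjusted P = 0.522).

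**Figure D4:**
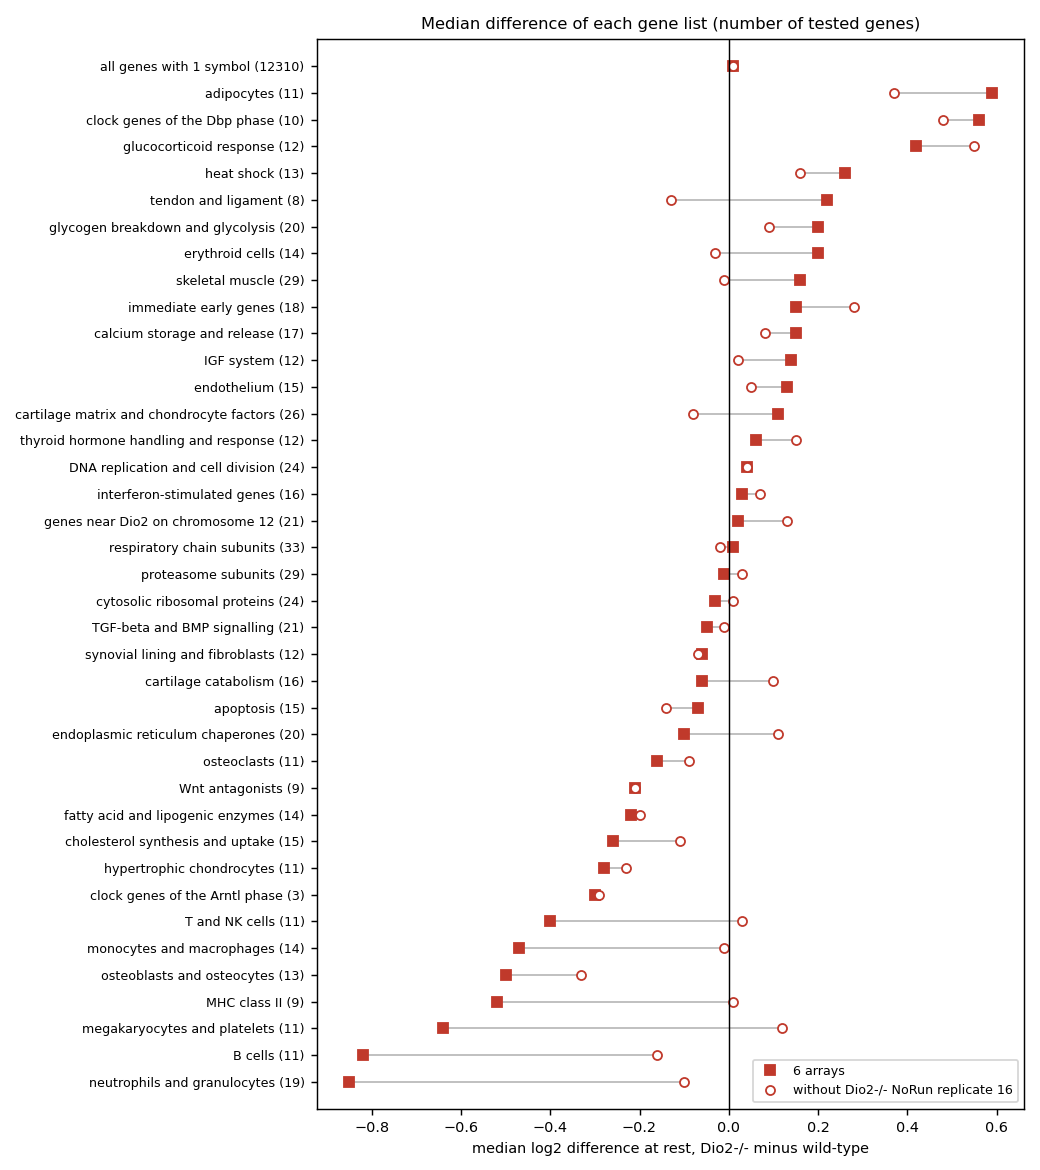
Median log2 difference between Dio2-/- and wild-type cartilage at rest (horizontal axis) for each of the 38 gene lists and for all genes, with all 6 arrays (filled squares) and without Dio2-/- NoRun replicate 16 (open circles). Medians of marrow and blood lists go from -0.85 to -0.10 (neutrophils) and from -0.82 to -0.16 (B cells) without it, and those of the Dbp-phase clock genes stay at 0.56 and 0.48.

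Marrow and blood cell genes were low on a single array of the Dio2-/- group. Over 19 neutrophil genes the median difference was -0.85 with 19 lower, and -0.10 without replicate 16. The mean level of these genes was 13.99 to 14.08 on the wild-type arrays, 14.01 and 13.98 on replicates 17 and 19, and 11.71 on replicate 16. The same array was lowest for 11 megakaryocyte genes (9.10, against 11.13 to 11.58 on the others), 11 B cell genes (7.52, against 9.05 to 10.09) and 14 monocyte and macrophage genes (9.44, against 10.71 to 10.90). Their medians went from -0.64, -0.82 and -0.47 to 0.12, -0.16 and -0.01 without it. T and NK cell genes went from -0.40 to 0.03 and MHC class II genes from -0.52 to 0.01. Erythroid genes were highest on replicate 16, at 13.30 against 12.35 to 12.61, with a median of 0.20 that became -0.03. Some members separated the groups on all 6 arrays. Cx3cr1, a chemokine receptor of monocytes, read 10.56, 10.61 and 10.57 in wild-type against 9.67, 9.93 and 10.08 (difference -0.69, SE 0.21, adjusted P = 0.314), and Gata1, the erythroid transcription factor, read 8.82, 8.75 and 8.78 against 9.95, 9.41 and 9.10 (0.70, SE 0.17, adjusted P = 0.189). The part of cell makeup in the gene differences was not tested.

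**Figure D5:**
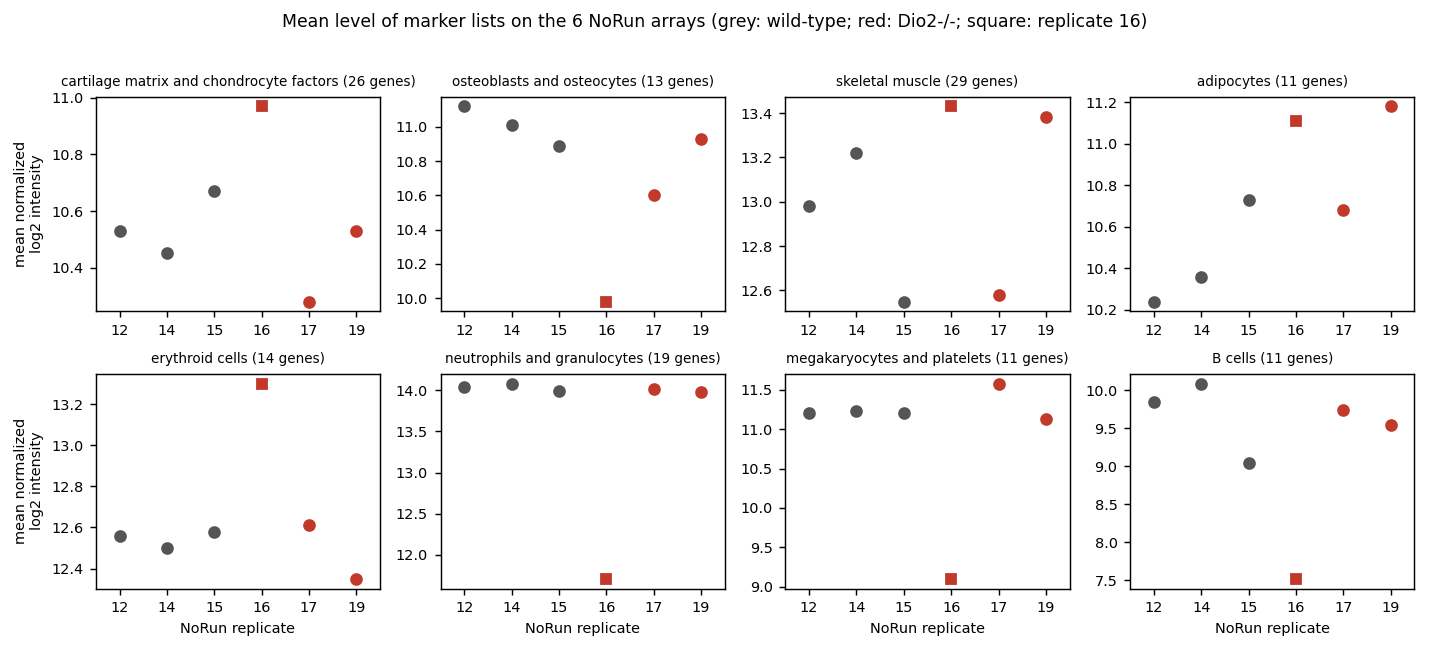
Mean normalized log2 intensity (vertical axes, which differ between panels) of 8 marker lists on each of the 6 NoRun arrays; grey points are wild-type and red points Dio2-/- arrays, and the square is replicate 16. Neutrophil, megakaryocyte and B cell lists are lowest on replicate 16 (11.71, 9.10 and 7.52), and the cartilage list is highest there (10.97).

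Adipocyte genes had a median of 0.59 over 11 genes, with 9 higher (0.37 without replicate 16). Lep, which encodes leptin, read 8.41 and 8.18 in wild-type replicates 12 and 14 against 10.54, 9.99 and 10.95 in Dio2-/- pools, and wild-type replicate 15 lay within the Dio2-/- range (1.63, SE 0.47, adjusted P = 0.259). Skeletal muscle genes had a median of 0.16 over 29 genes and -0.01 without replicate 16, with mean levels of 12.55 on wild-type replicate 15 and 12.58 on replicate 17 and 12.98 to 13.43 on the others. Enzymes of glycogen breakdown and glycolysis had a median of 0.20 (0.09 without replicate 16) and respiratory chain subunits one of 0.01. Lists of the other tissues of a joint had medians of 0.13 for endothelium (0.05 without replicate 16), 0.22 for tendon and ligament (-0.13 without replicate 16), -0.06 for synovial lining and -0.16 for osteoclasts (-0.09 without it).

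Of 15 tested cholesterol genes 10 were lower, with a median of -0.26 (-0.11 without replicate 16), and the groups were without overlap in 3, Nsdhl, Msmo1 and Dhcr7 (differences of -0.79, -0.37 and -0.44, adjusted P = 0.402 to 0.477). Among 14 fatty acid and lipogenic enzymes the median was -0.22 and the groups were without overlap in 5, all lower. Over all genes the groups were without overlap in 6.59% (lower) and 6.82% (higher). Acly, which makes cytosolic acetyl-CoA, ranged from 13.22 to 13.50 in wild-type and from 12.69 to 13.11 in Dio2-/- pools (-0.39, SE 0.14, adjusted P = 0.371), whereas the desaturase Scd1 ran the other way with overlap, at 0.87.

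In the apoptosis list, with a median of -0.07 (-0.14 without replicate 16), 4 of 15 tested genes had an unadjusted P-value below 0.05 in the lower direction and 1 in the higher. Over all genes 5.74% were lower and 5.07% higher at that value. Among the 4, Xiap was not detected on any Dio2-/- array and Pmaip1 on only 1. The mitochondrial pore protein Bak1 read 8.39, 8.71 and 8.65 against 8.27, 7.82 and 7.73 (-0.65, SE 0.26, adjusted P = 0.410), and Bid, which activates it, differed by -0.61 (adjusted P = 0.330), or -0.32 without replicate 16. Bbc3, which encodes the inducer PUMA, had a difference of 0.63 (SE 0.20, adjusted P = 0.314). In the calcium list, with a median of 0.15 over 17 genes (0.08 without replicate 16), Sln, an inhibitor of the muscle calcium pump, read 7.88, 8.01 and 7.82 against 5.46, 7.25 and 5.93, without overlap (-1.69, SE 0.52, adjusted P = 0.311).

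The medians of the remaining lists were 0.04 for 24 genes of DNA replication and division, 0.03 for 16 interferon-stimulated genes, 0.14 for 12 genes of the IGF system (0.02 without replicate 16), -0.05 for 21 of TGF-beta and BMP signalling, -0.21 for 9 Wnt antagonists (also without replicate 16), -0.03 for 24 ribosomal proteins and -0.01 for 29 proteasome subunits. In the last list Psmc4 and Psmb1 pointed in opposite directions without overlap, at 0.42 and -0.66 (adjusted P = 0.215 and 0.341). Genes close to Dio2 on chromosome 12 were examined because a segment around a knocked-out gene can keep the genotype of the embryonic stem cells through a backcross. Within 10 Mb of Dio2, 89 genes were tested, with a median of 0.06, 52 higher and 37 lower, and 0 passed. The groups were without overlap in 3 lower and 6 higher genes of the 89, against 6.59% (lower) and 6.82% (higher) of all genes. Galc, a lysosomal galactosidase encoded there, read 7.75, 7.67 and 7.86 against 6.69, 7.27 and 7.19 (-0.71, SE 0.21, adjusted P = 0.304).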

How the data were processed

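RNA of micro-dissected articular cartilage was measured on MouseWG-6 v2 arrays of Illumina. The deposited data are probe intensities before normalization, each with its detection P-value, and a normalized log2 table made by the authors. GenomeStudio is named in the submitters' notes (version, background step and normalization: not given in the sources used here). Per the methods, chips also carried replicate arrays, not analysed here.

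The intensities of all 20 arrays were background-corrected and quantile-normalized together (neqc, offset 16; limma 3.58.1, R 4.3.3). Probes detected at a P-value under 0.05 on 3 or more arrays, 23148 of 45281, were fitted with limma in 4 groups (genotype by running) with a common spread. Adjusted P-values are Benjamini-Hochberg values over these probes, called under 0.05. Lower limits of folds take, on each dim array, the higher of the lowest detected signal and the probe's own. Intervals are 95% intervals. The number of arrays limits the precision. A two-sided exact permutation test was run for Calr and Dio2. Chip and position came from the labels.

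On the array 34885 probes carry 1 gene symbol, 18 several and 10378 none listed. The gene identifiers of 34807 were found in RefSeq (GRCm38.p6). Lists used the brightest tested probe of a gene, and 68 listed genes had no probe by that symbol.

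Named genes were those the study names for these arrays, called genes with 1 symbol, no overlap at rest and detection on all arrays of the higher group, the 10 smallest P-values in a direction with fewer than 5 calls, up to 4 genes per list by smallest P-value, and the 3 smallest interaction P-values. Other list genes were named for their role after their values were seen, as were the 2 called probes without a symbol. The members, lists, rule and tests were chosen with earlier results of these data known. Alternatives changed the background correction, normalization, filter, fit or arrays. The fit was tested on simulated data.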

Additional observations from a re-analysis of the deposited data

Results flagged for a closer look

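At rest the groups hold 3 arrays and were not screened for far samples. For the named genes the 2 Run groups were screened, 54 sets of values in all, and 4 held a sample far from the rest, where chance gives about 1 in 20. Lbh read 10.24 on Dio2-/- Run replicate 35, below the other 5 arrays of its group at 10.51 to 10.61, and this array shared the chip of the wild-type NoRun arrays. ILMN_3163335 read 5.89 on Dio2-/- Run replicate 24, below the others at 6.73 to 7.21. Slc5a3 read 5.81 on the same replicate 24, above the others at 4.90 to 5.2. Calr read 9.99 on wild-type Run replicate 31, below the others at 10.6 to 10.95. No named gene had non-overlapping genotype groups in opposite directions at rest and in runners.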

How the results depend on the processing

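All 10 called probes kept a lower level in Dio2-/- samples wherever they were tested with the same probe, but their calls depended on the fit. With limma, 10 lower and 0 higher probes became 25 and 5 without background correction (23 with a fold over 1.5), 28 and 4 on the authors' log2 table (1 interaction call), and 5 lower without a filter (all 5 with a fold over 1.5). The count was 0 lower, and 0 with a fold over 1.5, with only the 6 NoRun arrays in the fit (666 lower and 624 higher at an unadjusted P-value below 0.05), with those arrays normalized and fitted alone (666 and 617), with the chip as a random block (845 and 645) and with array position as a covariate (1410 and 1186). The other filters, normexp with an offset of 50, cyclic loess and the trended robust fit gave 9 to 11 lower and 0 higher.

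Array weights gave 1972 lower and 1402 higher probes (1405 with a fold over 1.5, 827 interaction calls), but their estimation stopped before it converged. Estimated gene by gene, an alternative chosen after seeing the data, they gave 541 and 265 (583 with a fold over 1.5, 66 interaction calls). Both gave replicate 16 the smallest weight of all arrays, 0.158 and 0.169. Leaving out single arrays gave 0 to 22 lower and 0 to 3 higher probes, 0 to 25 with a fold over 1.5 and 0 to 11 interaction calls. Leaving out Dio2-/- Run replicate 24 gave 16 lower and 3 higher (19 with a fold over 1.5). Leaving out replicates 16 and 24 together, chosen after seeing the data, gave 38 and 10 (48 with a fold over 1.5, 13 interaction calls), and leaving out replicate 16 before normalization, likewise, gave 22 and 3 (25 and 11).

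Calr passed at -1.30 without background correction, -1.19 on the authors' table, -1.65 and -1.64 with the weights, -1.43 without replicate 24 and -1.59 without replicates 16 and 24, and ranged from -1.59 to -1.24 when NoRun arrays were left out singly. Its adjusted P-value was 0.0159 to 0.792 over the alternatives other than weights. Dio2 passed with array weights (0.74), and its difference was 0.17 on the authors' table. The dim Sox4 probe turned to 0.05 without replicate 12 and 0.25 without replicate 17 and was -0.49 without replicate 16, and the brightest probes of Scnm1 and Kmt5a, compared after seeing the data, were at -0.04 and -0.08. The cause of these changes was not tested. No paired analysis was possible because the groups share no replicate numbers. Probes near background, such as Dio2, Nlrp3, Slc5a3 and Per3, have only bounds, and these hold on the background-corrected scale.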

Other observations

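Leaving out Dio2-/- NoRun replicate 16 gave 25 called probes, 22 lower and 3 higher, of which 5 were also called with it. The other 20 probes are by their choice ones where replicate 16 ran against replicates 17 and 19, so that its place near the wild-type NoRun arrays is no result. On 17 of the 20, wild-type NoRun replicates 12, 14 and 15 together with Dio2-/- NoRun replicate 16 lay apart from all 16 other arrays. Those include replicates 17 and 19, all 14 Run arrays of both genotypes and Dio2-/- Run replicate 35 of the wild-type NoRun chip. The distance from replicates 17 and 19 follows from the choice of probes. The share over all tested probes was not taken, so the count is a description. The genes named here were chosen after their values were seen, and the difference between these arrays was not tested.

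Gins1, a subunit of the replicative helicase, read 8.42, 8.50, 8.46 and 8.79 on replicates 12, 14, 15 and 16, against 10.38 and 10.29 on replicates 17 and 19, 10.18 to 11.02 in wild-type Run and 10.18 to 11.22 in Dio2-/- Run arrays. Rps23rg1 read 7.84, 7.34, 8.03 and 8.89, against 4.94 and 5.32 on replicates 17 and 19 and 4.88 to 5.94 in wild-type Run arrays. Ctnnb1, which encodes beta-catenin, read 9.57, 8.95, 9.54 and 10.70 on this probe, against 7.53 and 7.67, and 7.26 to 8.29 in wild-type Run arrays. Phospho1, a phosphatase of skeletal mineralization, read 11.04, 10.91, 10.74 and 11.14, against 8.67 and 9.33, and 9.32 to 9.88 in wild-type Run arrays. Gsk3a read 8.72, 8.37, 8.6 and 8.67, against 6.99 and 6.62, and 7.0 to 7.67 in wild-type Run arrays. Gadd45a, a stress-induced growth arrest gene, read 12.50, 12.34, 12.54 and 13.05, against 11.67 and 11.36, and 11.66 to 12.22 in wild-type Run arrays.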
